A study of Panax ginseng with 12 samples.

Results

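Embryogenic calli of Panax ginseng that had spent 6 days at 5 °C were compared with calli kept for 6 days at 20 °C. Such calli are unorganised tissue in culture from which embryos can develop without fertilisation. The comparison used 4 of the 12 libraries of total RNA in the series: cold day 6 replicates 2 and 3 against control day 6 replicates 2 and 3, chosen by the temperature and day in their titles. The other 8 libraries are calli at the same temperatures on days 2 and 4, with 2 libraries in each group. The labels name no cultivar, genotype or callus line, and no agent other than temperature. They do not say whether replicates came from separate cultures, so the p-values may measure only technical spread. The deposited table gave 44953 assembled genes in TPM, a level on which each gene is already scaled by its length. Of these, 44600 reached at least 1 TPM in at least 2 of the 12 libraries and were tested, and 28458 of the tested genes carried a protein annotation. Gene symbols come from the best protein match of each assembled gene, so 1 symbol can stand for several genes, and reads of near-identical genes may have been split among them in a way not known here.

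Plant cells in the cold face stiffer membranes, slower enzymes and a risk of water loss to ice. A rise of cytosolic calcium and the CBF/DREB transcription factors are early steps, followed by dehydrins and other protective proteins, soluble sugars, and a change in the unsaturation of membrane lipids. Growth and cell division slow down at the same time.

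The TPM totals of the 4 libraries were 907923 to 929555 and their medians 6.5 to 7.57, and since TPM keeps no read number the depth is unknown. On log2(TPM + 1) over all tested genes, the correlation between the cold libraries was 0.899 and between the controls 0.848. Cold replicate 2 correlated at 0.75 and 0.802 with control replicates 2 and 3, and cold replicate 3 at 0.806 and 0.858. Cold replicate 3 was thus the cold library nearer to both controls, and control replicate 3 the control nearer to both cold libraries. These are correlations across genes, which are not independent replicates. Of 16 embryogenic callus markers that matched by name, all had a value above 0 in at least 1 of the 4 libraries and none was called, while the names BABY BOOM, LEAFY COTYLEDON and FUSCA3 matched no gene used here. The summed marker level was 484 and 544 TPM in cold replicates 2 and 3 and 486 and 568 TPM in control replicates 2 and 3. Of the 16, 3 had both cold libraries above both controls (18.8%) and 7 both below (43.8%), against 22.8% and 25.5% of all tested genes. SERK1 (gene DN26952_c0_g1), a receptor kinase of somatic embryogenesis, was at 83.7 and 88.5 TPM in the cold and 164 and 109 TPM in the controls. Another SERK1 gene (DN19044_c0_g1) was at 6.3 and 6.8 TPM against 2.1 and 5.61 TPM. WOX8 (DN28053_c1_g1), the highest marker, was at 222 and 305 TPM in the cold and 126 and 290 TPM in the controls. The epidermis and cuticle markers summed to 486 and 435 TPM in the cold against 761 and 695 TPM in the controls, with 3 of 24 at 0 in all 4 libraries. That sum includes CER1, whose values are given with the cell wall genes, and without CER1 the sums of the groups overlap. The xylem markers summed to 182 and 167 TPM against 174 and 243 TPM, with 1 of 16 at 0 in all 4 libraries. In bulk RNA, fewer cells of a type and less RNA per cell cannot be told apart.

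After 6 days of cold, 216 genes differed from the controls at an adjusted p of 0.05 (limma with a variance trend over all 12 libraries, Benjamini-Hochberg over 44600 genes). Of these, 142 rose (0.318% of the tested genes) and 74 fell (0.166%). The median log2 difference was 2.87 among the rises and -2.36 among the falls, and the smallest absolute difference was 1.32. At an unadjusted p under 0.05 there were 7824 genes, 3833 higher and 3991 lower. Protein annotation was present for 63.4% of the rises, 81.1% of the falls and 63.8% of all tested genes. All 216 called genes had both cold libraries on one side of both controls. Without cold replicate 2 there was 1 higher call (0.00224%) and 0 lower calls (0%), and without cold replicate 3 there were 172 (0.386%) and 95 (0.213%), of which 75 and 32 were shared with the full set. Leaving out control replicate 2 gave 18 (0.0404%) and 3 (0.00673%) calls, and leaving out control replicate 3 gave 22 (0.0493%) and 4 (0.00897%). In each of these fits all 216 genes kept the sign of their difference, which their lack of overlap fixes in advance. A permutation of 2 libraries against 2 cannot give an exact two-sided p below 1 in 3, so single genes were tested only in the fit over all genes.

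The genes that both cold libraries shared were counted without a test as those whose cold values lay both above or both below the controls. Both cold libraries lay above both controls in 10167 genes (22.8%) and below both in 11367 (25.5%), and the groups overlapped in 23066 (51.7%). A gap of at least 1 on the log2 scale between the nearest cold and control library was present in 1201 of the higher and 1685 of the lower genes. Cold replicate 2 was the farther from the controls in 66.7% of the higher genes and 59.8% of the lower ones, and in 113 of 142 called rises and 51 of 74 called falls. The median absolute difference to the control mean was 0.638 on the log2 scale in cold replicate 2 and 0.495 in cold replicate 3. Between single libraries it was 0.526 for the controls and 0.429 for the cold libraries. A distance to a mean is not directly comparable with a distance between single libraries. Taken from separate libraries, the difference of replicate 2 (cold minus control) and that of replicate 3 had the same sign in 27452 genes (61.6%). Both differences passed 2-fold upward in 1643 genes and downward in 2452, and 943 genes passed 2-fold in opposite directions.

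**Figure D1:**
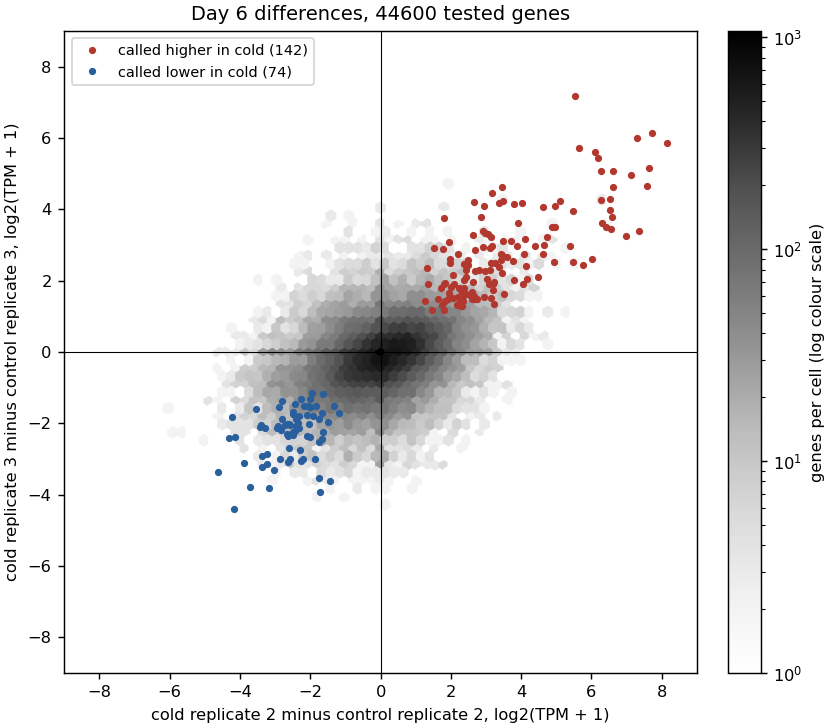
Cold minus control for the libraries numbered 2 (x axis) and numbered 3 (y axis), each on log2(TPM + 1), with grey cells for all 44600 tested genes and points for the 142 genes called higher and the 74 called lower. All called genes lie in the quadrants where both differences have the same sign, which their lack of overlap fixes. The rises reach farther from 0 than the falls.

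Where cold replicate 2 lay at least 1 log2 unit above both controls (3882 genes), cold replicate 3 was also above both in 3206, between them in 505 and below both in 171. Where it lay as far below (4441 genes), cold replicate 3 was also below in 3783, between in 395 and above in 263. Starting from cold replicate 3, 2186 genes lay that far above both controls and cold replicate 2 was also above in 1738. Of 2717 genes that far below, cold replicate 2 was also below in 2481. Thus most large departures of either cold library were shared in direction by the other, and fewer genes departed by this much in cold replicate 3. Both cold libraries were set against the same 2 controls, which by itself favours a shared side. Over all tested genes, cold replicate 3 lay above both controls in 32.8% and below both in 34.5%. For cold replicate 2 these shares were 35.1% and 37.5%.

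**Figure D2:**
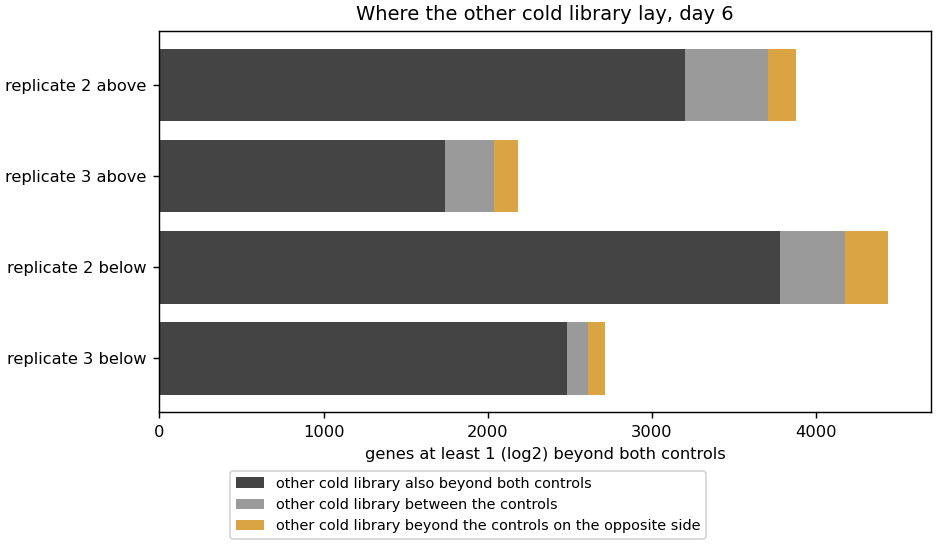
Number of genes in which 1 cold library lay at least 1 log2 unit above or below both controls, split by where the other cold library lay. The dark part, where the other cold library lay on the same side of both controls, is 3206 of 3882 genes for replicate 2 above and 2481 of 2717 genes for replicate 3 below.

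Among called rises with an informative protein name, the largest included a pair of oxygenases of the 2-oxoglutarate family. At1g11780 (gene DN30555_c1_g1), a match to the alkB dioxygenases that remove methyl groups from nucleic acids, was at 1148 and 520.1 TPM in cold replicates 2 and 3 and 4.75 and 13.5 TPM in control replicates 2 and 3 (log2 difference 6.41, SE 0.62, adjusted p = 0.003). At5g05600 (DN16285_c0_g1), a probable 2-oxoglutarate-dependent dioxygenase, was at 143 and 104 TPM in the cold libraries and 0.47 and 2.08 TPM in the controls (log2 difference 5.85, SE 0.60, adjusted p = 0.0033). In both, the lower cold library was far above the higher control. At1g73050 (DN26599_c0_g1), related to the mandelonitrile lyases that break down cyanogenic compounds, stood at 101.25 and 35.9 TPM in the cold libraries and 0.05 and 0.48 TPM in the controls (log2 difference 5.62, SE 0.61, adjusted p = 0.005). NRP1 (DN34020_c1_g4), matching a nodulin-related protein, was at 45.8 and 25.9 TPM in the cold libraries and 0.05 and 0.73 TPM in the controls (log2 difference 4.72, SE 0.47, adjusted p = 0.003). For MLO10 (DN33887_c2_g2), of the membrane protein family known for mildew susceptibility, the values were 128 and 16.3 TPM in the cold libraries and 1.39 and 2.20 TPM in the controls (log2 difference 4.09, SE 0.69, adjusted p = 0.036). Cold replicate 2 was several times higher than cold replicate 3 for MLO10, and both stayed clear of the controls. A hydrolase of gamma-glutamyl-gamma-aminobutyrate (DN23618_c0_g4), an enzyme type that releases the amino acid GABA in bacteria, gave 93.5 and 88.2 TPM in the cold libraries and 11.3 and 4.21 TPM in the controls (log2 difference 3.52, SE 0.47, adjusted p = 0.014). These 6 genes had adjusted p 0.071 to 0.2 without cold replicate 2, 0.003 to 0.041 without cold replicate 3, 0.042 to 0.18 without control replicate 2 and 0.018 to 0.086 without control replicate 3.

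Several called rises had no protein name. DN27569_c2_g1, without annotation and 417 bases long, was at 18787 and 8127 TPM in cold replicates 2 and 3 and 88.6 and 113 TPM in control replicates 2 and 3 (log2 difference 6.93, SE 0.66, adjusted p = 0.003). It had the highest TPM of all genes in cold replicate 2. DN31086_c0_g1, also without annotation, was at 4713 and 1408 TPM in the cold libraries and 15.5 and 23.1 TPM in the controls (log2 difference 7.01, SE 0.66, adjusted p = 0.003), the largest log2 difference of the comparison. The unannotated gene DN16803_c1_g1 was at 376 and 112 TPM in the cold libraries and 1.68 and 2.60 TPM in the controls (log2 difference 6.06, SE 0.49, adjusted p = 0.0027) and was the only gene called in all 4 fits with 1 library left out. These 3 were named after their values were seen, for their level, their difference and their calls. Among the 142 rises, 8 had both controls listed at 0, and among the 74 falls 2 had both cold libraries listed at 0.

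**Figure D3:**
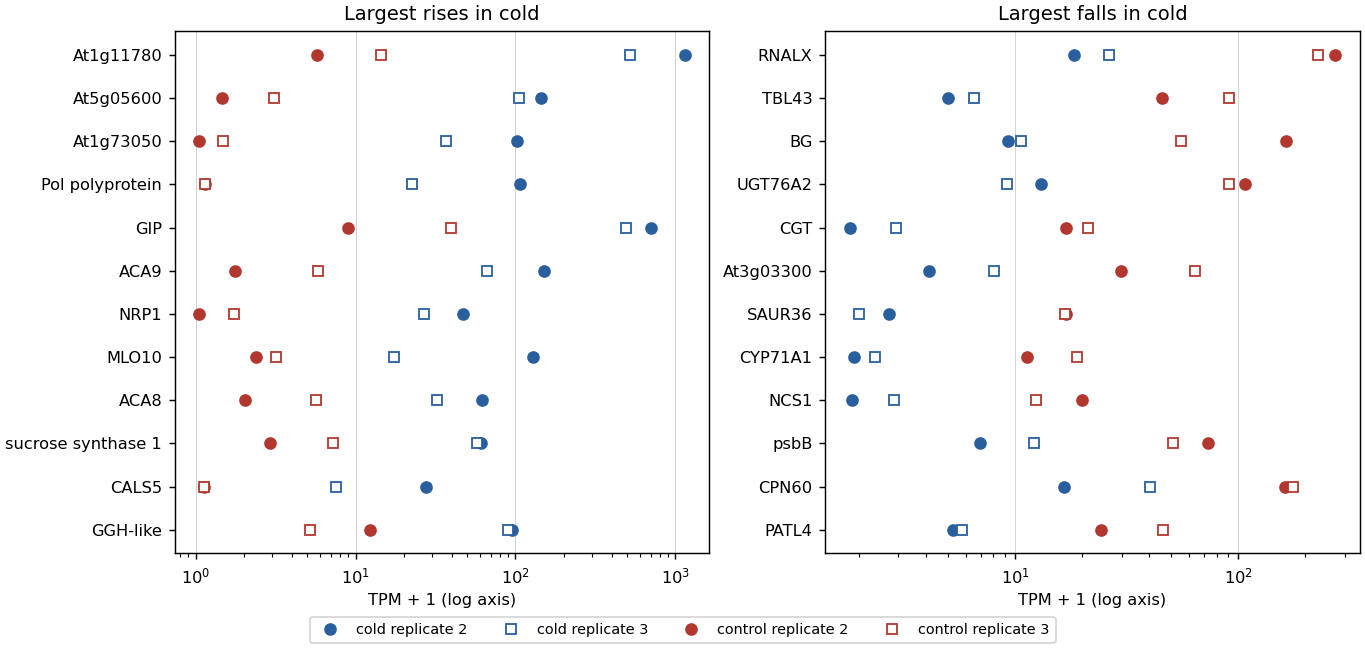
TPM + 1 on a log axis in each of the 4 libraries for the 12 largest called rises (left) and the 12 largest called falls (right) with an informative protein name, where circles are replicate 2, squares replicate 3, blue cold and red control. In every gene the blue and red points do not overlap, since lack of overlap was part of the choice. In all 12 rises the cold replicate 2 circle lies to the right of the cold replicate 3 square. The label GGH-like is the hydrolase-like gene DN23618_c0_g4.

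The 3 largest called falls, DN22218_c1_g2 (log2 difference -4.28), DN30231_c0_g3 (-4.00) and DN31927_c1_g15 (-3.75, with both cold libraries listed at 0), had no informative protein name and are named after their values were seen. Among those with one, RNALX (DN17058_c1_g2), an intracellular ribonuclease of the type linked to senescence and phosphate recycling in tomato, was at 17.4 and 25.4 TPM in cold replicates 2 and 3 and 271 and 227 TPM in control replicates 2 and 3 (log2 difference -3.50, SE 0.46, adjusted p = 0.014). At3g03300 (DN17284_c0_g4), matching Dicer-like 2, which cuts double-stranded RNA into small RNAs, was at 3.13 and 7.06 TPM in the cold libraries and 28.8 and 63.2 TPM in the controls (log2 difference -2.92, SE 0.55, adjusted p = 0.049). The lower control of RNALX was several times its higher cold library, and cold replicate 3 was the higher cold library for both genes. BG (DN14552_c0_g1), basic 7S globulin, a seed protein of soybean, was at 8.28 and 9.67 TPM in the cold libraries and 162 and 54.2 TPM in the controls (log2 difference -3.25, SE 0.62, adjusted p = 0.05, below the threshold before rounding). PATL4 (DN29178_c0_g1), a patellin of the phosphoinositide-binding family that acts at membranes, gave 4.26 and 4.78 TPM in the cold libraries and 23.3 and 44.9 TPM in the controls (log2 difference -2.60, SE 0.46, adjusted p = 0.043). SAUR36 (DN26216_c0_g5), an auxin-responsive protein, fell, with 1.73 and 0.99 TPM in the cold libraries and 15.9 and 15.8 TPM in the controls (log2 difference -2.85, SE 0.48, adjusted p = 0.034). The controls of SAUR36 lay within 0.2 TPM of each other. NCS1 (DN25709_c1_g1), which in alkaloid-forming plants forms the benzylisoquinoline skeleton, was at 0.86 and 1.87 TPM in the cold libraries and 18.9 and 11.4 TPM in the controls (log2 difference -2.77, SE 0.52, adjusted p = 0.049). The plastid gene psbB (DN14516_c3_g12), for the CP47 protein of photosystem II, was at 5.94 and 11.2 TPM in the cold libraries and 72.5 and 49.9 TPM in the controls (log2 difference -2.73, SE 0.43, adjusted p = 0.026). Its call is 1 of 35 photosynthesis genes, whose summed level was 205 and 188 TPM in the cold and 259 and 244 TPM in the controls. That sum includes psbB itself, and without psbB the sums of the groups overlap. Of the 35, 9 lay above both controls (25.7%) and 10 below (28.6%), against 22.8% and 25.5% of all tested genes. These 7 genes had adjusted p 0.2 to 0.39 without cold replicate 2, 0.036 to 0.093 without cold replicate 3, 0.11 to 0.25 without control replicate 2 and 0.06 to 0.13 without control replicate 3.

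Among 21 dehydrins, LEA and COR proteins, which stabilise membranes and proteins when water is lost, 2 rose (9.52%) and 0 fell. Over all tested genes 0.318% were called higher. Both cold libraries lay above both controls in 12 of the 21 (57.1%) and below in 1 (4.76%), against 22.8% and 25.5% of all tested genes. The median log2 difference was 0.80, against -0.03 over all tested genes. The putative dehydrin DN23807_c0_g1 was at 5804 and 4382 TPM in cold replicates 2 and 3 and 344 and 649.8 TPM in control replicates 2 and 3 (log2 difference 3.41, SE 0.63, adjusted p = 0.048). Dehydrin 2 (DN20868_c3_g1) was at 1014 and 578 TPM in the cold libraries and 60.7 and 154 TPM in the controls (log2 difference 2.97, SE 0.54, adjusted p = 0.045). In both dehydrins control replicate 3 was the higher control and cold replicate 2 the higher cold library, with no overlap. The 2 calls had adjusted p 0.36 without cold replicate 2, 0.057 to 0.08 without cold replicate 3, 0.23 to 0.25 without control replicate 2 and 0.06 to 0.087 without control replicate 3. Taken singly, 16 members lay above both controls in cold replicate 2, where 35.1% of all tested genes did, and 12 in cold replicate 3, where 32.8% did.

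The abscisic acid list and the protein phosphatases 2C, which include negative regulators of abscisic acid signalling, had more members above than below the controls. Of 26 abscisic acid genes 0 were called, and the median log2 difference was 0.33. In 12 (46.2%) both cold libraries lay above both controls and in 3 (11.5%) below, against 22.8% and 25.5% of all tested genes. SRK2E (DN16693_c0_g1), the kinase OST1 that abscisic acid activates in Arabidopsis, was at 93.2 and 99.5 TPM in the cold libraries and 55.8 and 81.7 TPM in the controls (log2 difference 0.51, SE 0.34, adjusted p = 0.47). Of 119 protein phosphatases 2C, 1 rose (0.84%), against 0.318% called higher over all tested genes. In 48 (40.3%) both cold libraries lay above the controls and in 12 (10.1%) both below. At3g17090 (DN20295_c1_g1), probable protein phosphatase 2C 42, was at 166 and 93.7 TPM in the cold libraries and 14.3 and 13.5 TPM in the controls (log2 difference 3.08, SE 0.31, adjusted p = 0.0031). Its controls differed by less than 1 TPM, and it had adjusted p 0.066 without cold replicate 2, 0.0098 without cold replicate 3, 0.042 without control replicate 2 and 0.033 without control replicate 3. The cold transcription factors, with CBF/DREB, ICE and CAMTA members, had 0 of 55 called, 14 above (25.5%) and 7 below (12.7%), and a median log2 difference of 0.19. Their most expressed member, CMTA2 (DN32217_c0_g2), a calmodulin-binding activator of the family that switches on CBF genes in Arabidopsis, gave 79.4 and 95.7 TPM in the cold libraries and 41.0 and 56.2 TPM in the controls (log2 difference 0.85, SE 0.30, adjusted p = 0.19). Glycine-rich RNA-binding and cold shock proteins, which act as RNA chaperones, had 0 of 23 called. DN19832_c1_g4, a glycine-rich RNA-binding protein and the most abundant gene of cold replicate 3, stood at 4929 and 9903 TPM in the cold libraries and 2514 and 3478 TPM in the controls (log2 difference 1.24, SE 0.67, adjusted p = 0.37).

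**Figure D4:**
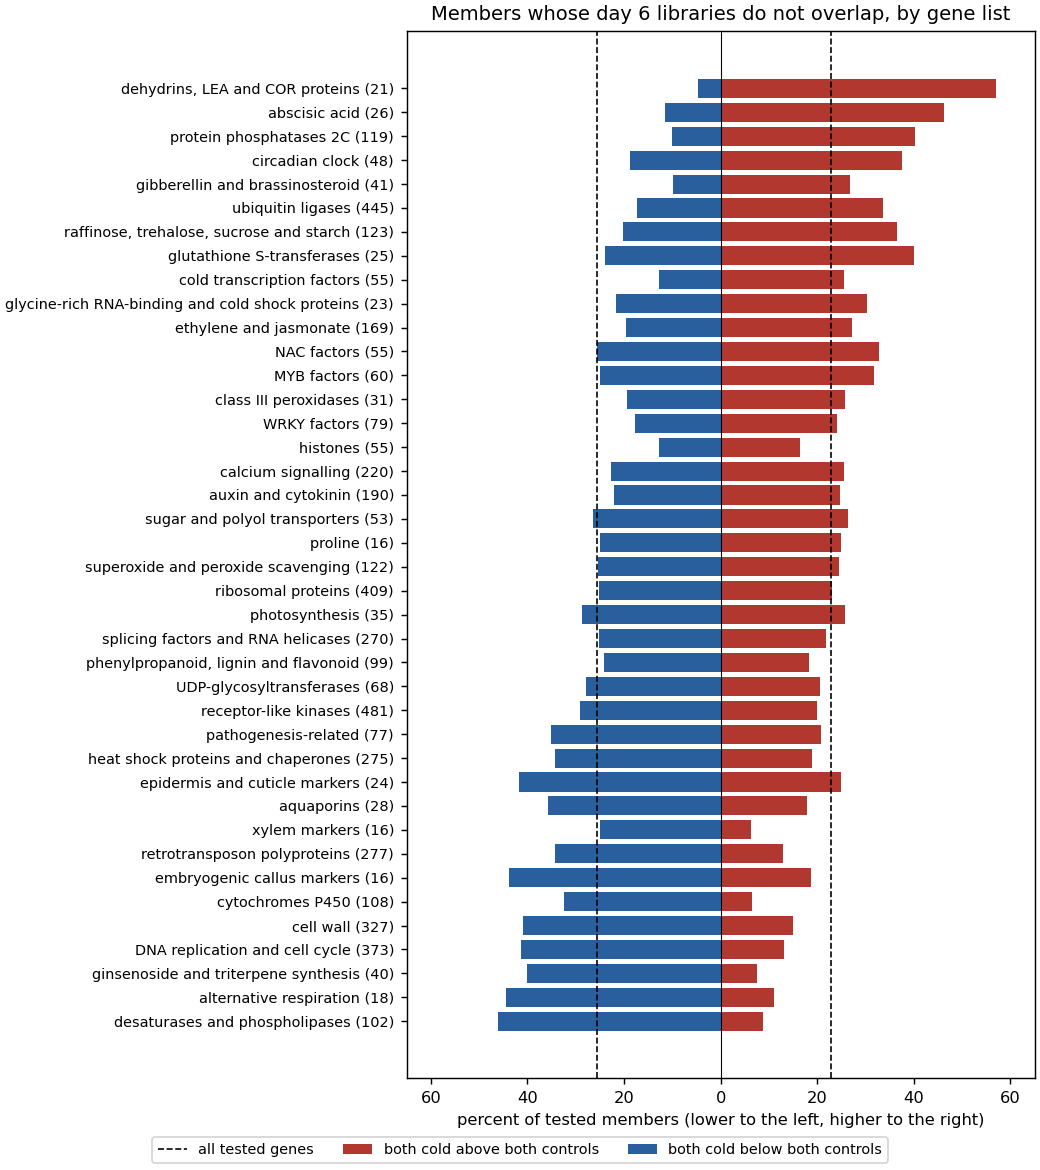
Percent of the tested members of each gene list with at least 10 of them whose cold libraries lay both above (red, to the right) or both below (blue, to the left) both controls at day 6, with the number tested in brackets and dashed lines at 22.8% and 25.5% for all tested genes. Dehydrins reach 57.1% on the right, and desaturases and phospholipases reach 46.1% on the left.

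Sugar and starch genes gave 4 rises and 1 fall among 123 tested members, against 0.318% called higher and 0.166% called lower over all tested genes. Both cold libraries lay above both controls in 45 members (36.6%) and below in 25 (20.3%), against 22.8% and 25.5% of all tested genes, and the median log2 difference was 0.20. The named rises were sucrose synthases, which split sucrose into UDP-glucose and fructose. Sucrose synthase isoform 1 (DN12392_c0_g1) was at 59.9 and 56.6 TPM in cold replicates 2 and 3 and 1.90 and 6.27 TPM in control replicates 2 and 3 (log2 difference 3.69, SE 0.52, adjusted p = 0.02). Sucrose synthase isoform 2 (DN28331_c0_g1) was at 104 and 81.4 TPM in the cold libraries and 7.67 and 11.9 TPM in the controls (log2 difference 3.14, SE 0.49, adjusted p = 0.026). The cold libraries lay close together in both genes, and each was many times the controls. Another gene of isoform 2 (DN13669_c0_g1) rose as well, with 28.6 and 23.4 TPM in the cold libraries and 1.70 and 4.22 TPM in the controls (log2 difference 2.84). Granule-bound starch synthase 2 (DN33037_c0_g4) fell, with 3.11 and 4.07 TPM in the cold libraries and 22.6 and 23.97 TPM in the controls (log2 difference -2.41, SE 0.30, adjusted p = 0.014). The table's wider KEGG set starch and sucrose metabolism did not share this rise. Of its 576 genes, 131 lay above both controls (22.7%) and 167 below (29%), with 4 called higher, 3 called lower and a median of -0.085. In the table's GO set sucrose metabolic process, 16 of 25 genes had both cold libraries above the controls and 1 both below, with a median of 0.55. The 5 genes of sucrose synthase isoform 1 in that set summed to 692 and 516 TPM in cold replicates 2 and 3 and to 343 and 249 TPM in control replicates 2 and 3, and all 5 lay above. Its 3 soluble beta-fructofuranosidase genes, vacuolar invertases that also split sucrose, summed to 141 and 119 TPM against 55.8 and 60 TPM. Sugar and polyol transporters had 2 rises among 53 members, both matching ERD6-like 7, and 14 members each above and below. The first (DN28518_c0_g1) was at 57.0 and 42.8 TPM in the cold libraries and 6.63 and 3.12 TPM in the controls (log2 difference 3.17, SE 0.42, adjusted p = 0.014), and the second (DN33881_c1_g2) at 24.5 and 24.1 TPM in the cold libraries and 5.50 and 3.11 TPM in the controls (log2 difference 2.29, SE 0.41, adjusted p = 0.043). The cold libraries of the second differed by less than 0.5 TPM. These 5 genes other than DN13669_c0_g1 had adjusted p 0.18 to 0.3 without cold replicate 2, 0.028 to 0.085 without cold replicate 3, 0.042 to 0.17 without control replicate 2 and 0.033 to 0.11 without control replicate 3.

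Calcium signalling genes gave 5 rises (2.27%) and 0 falls among 220, against 0.318% called higher over all tested genes. All 5 were plasma membrane calcium pumps, which export calcium from the cytosol. ACA9 (DN25671_c0_g7) was at 149.9 and 65.3 TPM in cold replicates 2 and 3 and 0.77 and 4.85 TPM in control replicates 2 and 3 (log2 difference 4.96, SE 0.85, adjusted p = 0.037). ACA8 (DN30304_c0_g2) was at 60.6 and 31.4 TPM in the cold libraries and 1.03 and 4.65 TPM in the controls (log2 difference 3.72, SE 0.56, adjusted p = 0.025). In both, control replicate 3 was the higher control and cold replicate 2 the higher cold library, without overlap. The other 3 called pumps also matched ACA8, with log2 differences of 3.28, 2.87 and 1.81. The 6 ACA8 genes summed to 259 and 120 TPM in the cold and 24.6 and 33 TPM in the controls. Over all 38 genes of the GO set calcium-transporting ATPase activity, 8 lay above both controls and 12 below, with a median log2 difference of -0.13. ACA10 genes, 4 in number, summed to 70.7 and 78.4 TPM in the cold and 128 and 123 TPM in the controls. The named ACA8 and ACA9 genes had adjusted p 0.26 to 0.34 without cold replicate 2, 0.037 to 0.054 without cold replicate 3, 0.14 to 0.2 without control replicate 2 and 0.034 to 0.06 without control replicate 3. Over the whole list 56 members lay above and 50 below, close to the shares of all tested genes.

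Desaturases and phospholipases, which set the unsaturation and turnover of membrane lipids, had 0 of 102 members called. Both cold libraries nevertheless lay below both controls in 47 of them (46.1%) and above in 9 (8.82%), against 25.5% and 22.8% of all tested genes. The median log2 difference was -0.57. Counted in 1 cold library at a time, 56 members lay below both controls in cold replicate 2 and 63 in cold replicate 3, against 37.5% and 34.5% of all tested genes. FAD2, the desaturase of the endoplasmic reticulum that makes linoleic from oleic acid, was the most frequent name in the KEGG set biosynthesis of unsaturated fatty acids. There, 24 genes named Delta(12)-fatty-acid desaturase FAD2 summed to 1740 and 1450 TPM in cold replicates 2 and 3 and to 6610 and 3120 TPM in control replicates 2 and 3. The controls thus differed from each other by more than the cold libraries did, and 17 of the 24 lay below both. Another 11 FAD2 genes summed to 202 and 80.5 TPM against 1430 and 303 TPM. The most expressed member at day 6, FAD2 DN25661_c1_g1, was at 576 and 619 TPM in the cold libraries and 686 and 707 TPM in the controls (log2 difference -0.22, SE 0.44, adjusted p = 0.84). At days 2 and 4 the median log2 differences of the 24 FAD2 genes were 0.52 and 0.69, against -1.61 at day 6, and none of them had a called difference between day 6 and the other days.

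DNA replication and cell cycle genes had 5 falls and 0 rises among 373, against 0.166% called lower over all tested genes. In 154 members both cold libraries lay below both controls (41.3%) and in 49 above (13.1%), against 25.5% and 22.8% of all tested genes, and the median log2 difference was -0.33. CDCA7L (DN22888_c0_g1), a cell division cycle-associated protein, was at 1.10 and 1.76 TPM in cold replicates 2 and 3 and 11.4 and 10.47 TPM in control replicates 2 and 3 (log2 difference -2.31, SE 0.36, adjusted p = 0.026). MAD2 (DN18484_c0_g1), of the spindle checkpoint that holds mitosis until chromosomes are attached, was at 6.84 and 5.03 TPM in the cold libraries and 30.3 and 30.3 TPM in the controls (log2 difference -2.19, SE 0.33, adjusted p = 0.025). The controls of MAD2 were nearly equal and both cold libraries lay far below them. These genes had adjusted p 0.19 to 0.26 without cold replicate 2, 0.044 to 0.063 without cold replicate 3, 0.13 to 0.16 without control replicate 2 and 0.078 to 0.079 without control replicate 3. MCM5 (DN35382_c2_g4), a subunit of the helicase that opens DNA for replication, also fell, with 30.9 and 29.2 TPM in the cold libraries and 128 and 87.3 TPM in the controls (log2 difference -1.78, SE 0.30). The 7 MCM5 genes summed to 83.7 and 72.4 TPM in the cold against 250 and 195 TPM in the controls, and 6 of them lay below both controls. MCM4, with 4 genes, summed to 45.2 and 31.7 TPM against 103 and 79.6 TPM. In the GO set DNA unwinding involved in DNA replication 20 of 31 genes lay below and 1 above. Of 55 histones, whose mRNA is made mainly in S phase, 0 were called, 9 lay above and 7 below. The cold libraries differed there: the median log2 difference from the control mean was 0.62 in cold replicate 2 and -0.40 in cold replicate 3.

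Cell wall genes lay below the controls more often than above. Of 327 members, 2 rose (0.612%) and 3 fell (0.917%), against 0.318% called higher and 0.166% called lower over all tested genes. In 134 (41%) both cold libraries lay below and in 49 (15%) above, against 25.5% and 22.8% of all tested genes. The median log2 difference was -0.45. TBL43 (DN15583_c1_g5), of the trichome birefringence-like family that acetylates wall polysaccharides, was at 4.02 and 5.54 TPM in cold replicates 2 and 3 and 44.5 and 90.4 TPM in control replicates 2 and 3 (log2 difference -3.49, SE 0.45, adjusted p = 0.014). At1g64390 (DN30899_c0_g1), endoglucanase 6, which cuts glucan chains, was at 3.86 and 4.84 TPM in the cold libraries and 24.5 and 20.5 TPM in the controls (log2 difference -2.14, SE 0.30, adjusted p = 0.019). Both genes were low in both cold libraries, with the groups well separated. Against this trend, CALS5 (DN30814_c2_g3), a callose synthase needed for pollen walls in Arabidopsis, rose, with 26.7 and 6.58 TPM in the cold libraries and 0.12 and 0.13 TPM in the controls (log2 difference 3.69, SE 0.59, adjusted p = 0.028). PME51 (DN20438_c0_g1), a probable pectinesterase that removes methyl groups from pectin, rose, with 45.6 and 47.2 TPM in the cold libraries and 10.9 and 7.49 TPM in the controls (log2 difference 2.24, SE 0.39, adjusted p = 0.041). The 4 genes had adjusted p 0.2 to 0.29 without cold replicate 2, 0.022 to 0.084 without cold replicate 3, 0.042 to 0.15 without control replicate 2 and 0.06 to 0.11 without control replicate 3. In the GO set 1,3-beta-D-glucan synthase activity, to which CALS5 belongs, 25 of 39 genes lay below and 3 above. Beta-galactosidases, which trim galactose from wall polymers, had 21 of 35 below and 4 above. CER1 (DN18898_c0_g1), of wax alkane synthesis and the most expressed epidermis and cuticle marker, was at 37.8 and 52.8 TPM in the cold libraries and 358 and 159 TPM in the controls (log2 difference -2.39, SE 0.51, adjusted p = 0.064). The sum of the epidermis and cuticle markers, lower in both cold libraries, includes CER1, and the sums of the other markers overlap between the groups. Of these 24 markers 6 lay above both controls (25%) and 10 below (41.7%), with a median log2 difference of -0.16. Their part in the cell wall values was not tested.

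Heat shock proteins and chaperones had 3 falls (1.09%) and 0 rises among 275, against 0.166% called lower over all tested genes. All 3 falls were mitochondrial chaperonins, which fold imported proteins. CPN60 gene DN29763_c3_g6 was at 15.6 and 39.4 TPM in cold replicates 2 and 3 and 162 and 175 TPM in control replicates 2 and 3 (log2 difference -2.71, SE 0.50, adjusted p = 0.048). CPN60 gene DN19988_c0_g2 was at 14.8 and 21.3 TPM in the cold libraries and 96.2 and 113 TPM in the controls (log2 difference -2.49, SE 0.35, adjusted p = 0.02). The lower control was over 4 times the higher cold library in both, and cold replicate 3 was the higher cold library. CPN60-2 (DN11598_c0_g1) fell in the same way, with 3.30 and 5.61 TPM in the cold libraries and 25.1 and 25.9 TPM in the controls (log2 difference -2.31, SE 0.37). The CPN60 genes had adjusted p 0.23 to 0.39 without cold replicate 2, 0.036 to 0.039 without cold replicate 3, 0.11 to 0.19 without control replicate 2 and 0.075 to 0.11 without control replicate 3. Over the list 94 members lay below (34.2%) and 52 above (18.9%), against 25.5% and 22.8% of all tested genes. The median log2 difference was -0.11. Of 409 ribosomal proteins, 94 lay above and 103 below, with a median of 0.01 and 1 rise, RPL18AA (DN30714_c0_g7), at 23.8 and 18.1 TPM in the cold libraries and 1.66 and 3.89 TPM in the controls (log2 difference 2.59, SE 0.45, adjusted p = 0.039). It had adjusted p 0.33 without cold replicate 2, 0.065 without cold replicate 3, 0.2 without control replicate 2 and 0.06 without control replicate 3.

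Enzymes that use glutathione gave several rises. Glutathione S-transferases, which attach glutathione to reactive compounds, had 2 rises among 25 (8%), with 10 above (40%) and 6 below (24%). Over all tested genes 0.318% were called higher, 22.8% lay above and 25.5% below. The gene DN35675_c0_g3 was at 424 and 221 TPM in cold replicates 2 and 3 and 74.6 and 39.9 TPM in control replicates 2 and 3 (log2 difference 2.46, SE 0.39, adjusted p = 0.027), and PARC (DN23475_c0_g2) at 105 and 62.1 TPM in the cold libraries and 20.7 and 17.9 TPM in the controls (log2 difference 2.02, SE 0.32, adjusted p = 0.027). Superoxide and peroxide scavengers had 3 rises among 122 (2.46%), with 30 above (24.6%) and 31 below (25.4%). The named rises were the GPX6 genes, peroxidases that reduce lipid hydroperoxides. GPX6 DN27295_c0_g3 was at 33.4 and 19.8 TPM in the cold libraries and 6.30 and 4.98 TPM in the controls (log2 difference 2.02, SE 0.34, adjusted p = 0.034), and its neighbour in the assembly, DN27295_c0_g4, at 57.8 and 41.4 TPM in the cold libraries and 10.4 and 12.6 TPM in the controls (log2 difference 2.00, SE 0.38, adjusted p = 0.049). All 4 genes had the higher value in cold replicate 2 and no overlap with the controls. They had adjusted p 0.27 to 0.39 without cold replicate 2, 0.028 to 0.067 without cold replicate 3, 0.082 to 0.22 without control replicate 2 and 0.087 to 0.096 without control replicate 3. The KEGG set glutathione metabolism held 5 called rises among 168 genes, but 37 lay above and 47 below, and its median log2 difference was 0.02.

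Ubiquitin ligases, which mark proteins for degradation, had 5 rises (1.12%) and 0 falls among 445, with 150 above both controls (33.7%) and 77 below (17.3%). Over all tested genes 0.318% were called higher, 22.8% lay above and 25.5% below. COP1 DN16424_c2_g2, the repressor of light responses, was at 10.3 and 7.87 TPM in cold replicates 2 and 3 and 0.04 and 0.31 TPM in control replicates 2 and 3 (log2 difference 3.10, SE 0.50, adjusted p = 0.029). A second COP1 gene, DN20131_c0_g1, was at 9.74 and 6.69 TPM in the cold libraries and 0 and 0.28 TPM in the controls (log2 difference 3.01, SE 0.53, adjusted p = 0.043). Both were near or at 0 in the controls and low in the cold libraries as well. The KEGG set circadian rhythm - plant, which holds them, had 63 of 153 genes above and 31 below, with a median log2 difference of 0.30. The narrower list of 48 clock genes had 0 called, 18 above and 9 below, and its median was 0.39 in cold replicate 2 and -0.04 in cold replicate 3. BHLH66 (DN32141_c0_g1), a transcription factor in the KEGG set, rose with 71.9 and 69.8 TPM in the cold libraries and 8.20 and 13.8 TPM in the controls (log2 difference 2.62, SE 0.41). Among 60 genes listed by word pattern as MYB factors 2 rose, against 0.318% called higher over all tested genes. A called fall outside that pattern, At1g14600 (DN35209_c1_g1, log2 difference -2.54, limma adjusted p = 0.034), is annotated as a putative Myb family factor and is named after its values were seen. PP2 (DN13718_c0_g4) was at 235 and 84.4 TPM in the cold libraries and 24.9 and 24.6 TPM in the controls (log2 difference 2.46, SE 0.44, adjusted p = 0.043), and MYB1R1 (DN33787_c1_g1), known from drought response in potato, at 108 and 50.3 TPM in the cold libraries and 20.3 and 18.2 TPM in the controls (log2 difference 1.89, SE 0.36, adjusted p = 0.049). Cold replicate 2 was more than 2 times cold replicate 3 in both MYB genes, while the controls nearly agreed. WRKY factors (79) and NAC factors (55), families of stress-responsive regulators, had 0 called. The COP1 and MYB genes had adjusted p 0.29 to 0.36 without cold replicate 2, 0.021 to 0.068 without cold replicate 3, 0.16 to 0.18 without control replicate 2 and 0.075 to 0.12 without control replicate 3.

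Receptor-like kinases, which carry signals from the cell surface, had 1 rise (0.208%) and 2 falls (0.416%) among 481 genes listed by word pattern. Over all tested genes 0.318% were called higher and 0.166% lower. Of the 481, 96 lay above (20%) and 140 below (29.1%), against 22.8% and 25.5% of all tested genes. A pair of called falls outside that pattern, DN16776_c0_g1 (log2 difference -2.06) and DN33048_c1_g7 (-2.08), are annotated as MDIS1-interacting receptor like kinase 2-like and are named after their values were seen. At2g47060 (DN21023_c0_g1) was at 99.9 and 65.9 TPM in cold replicates 2 and 3 and 29.9 and 18.4 TPM in control replicates 2 and 3 (log2 difference 1.75, SE 0.32, adjusted p = 0.045). IMK3 (DN32596_c0_g1), a meristem receptor-like kinase, was at 2.55 and 2.31 TPM in the cold libraries and 11.02 and 11.2 TPM in the controls (log2 difference -1.82, SE 0.30, adjusted p = 0.034), and At5g39000 (DN25721_c0_g1) at 9.50 and 7.50 TPM in the cold libraries and 28.6 and 31.9 TPM in the controls (log2 difference -1.72, SE 0.29, adjusted p = 0.034). The replicates of IMK3 lay within 0.3 TPM of each other in each group. The 3 listed kinases had adjusted p 0.22 to 0.36 without cold replicate 2, 0.048 to 0.08 without cold replicate 3, 0.11 to 0.16 without control replicate 2 and 0.089 to 0.12 without control replicate 3. Among the hormone lists, ethylene and jasmonate (169 genes) and gibberellin and brassinosteroid (41 genes) had 0 called, and auxin and cytokinin (190 genes) had the fall of SAUR36. OPR2 (DN33081_c0_g1), a 12-oxophytodienoate reductase like those of jasmonate synthesis, was at 315 and 734 TPM in the cold libraries and 906 and 126 TPM in the controls (log2 difference 0.51, SE 0.85, adjusted p = 0.8), so the groups overlapped.

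Ginsenoside and triterpene synthesis, the pathway to the saponins of ginseng, had 0 of 40 genes called. Both cold libraries lay below both controls in 16 (40%) and above in 3 (7.5%), against 25.5% and 22.8% of all tested genes. The median log2 difference was -0.33. Protopanaxadiol 6-hydroxylase (DN28175_c1_g2), which makes the protopanaxatriol skeleton, was at 131 and 277 TPM in cold replicates 2 and 3 and 331 and 553 TPM in control replicates 2 and 3 (log2 difference -1.16, SE 0.50, adjusted p = 0.26). Its cold replicate 3 lay between cold replicate 2 and control replicate 2, so the groups did not overlap but the nearest values were close. Cytochromes P450, oxygenases of specialised metabolism, had 2 falls among 108 (1.85%), against 0.166% called lower over all tested genes. Of the 108, 35 lay below (32.4%) and 7 above (6.48%), against 25.5% and 22.8% of all tested genes. CYP71A1 (DN15387_c0_g1) was at 0.89 and 1.35 TPM in the cold libraries and 10.3 and 17.9 TPM in the controls (log2 difference -2.79, SE 0.40, adjusted p = 0.022), and CYP72A219 (DN25542_c0_g2) at 8.84 and 14.2 TPM in the cold libraries and 54.4 and 75.3 TPM in the controls (log2 difference -2.41, SE 0.34, adjusted p = 0.02). UDP-glycosyltransferases, which attach sugars to small molecules, had 2 falls among 68, against 0.166% called lower over all tested genes, with 14 above (20.6%) and 19 below (27.9%), against 22.8% and 25.5% of all. UGT76A2 (DN12947_c0_g1), matching an iridoid glucosyltransferase, was at 12.1 and 8.17 TPM in the cold libraries and 106 and 90.0 TPM in the controls (log2 difference -3.17, SE 0.54, adjusted p = 0.036). CGT (DN19482_c0_g1), UDP-glycosyltransferase 13, was at 0.81 and 1.94 TPM in the cold libraries and 16.0 and 20.2 TPM in the controls (log2 difference -3.04, SE 0.50, adjusted p = 0.032). All 4 called genes were low in both cold libraries. They had adjusted p 0.22 to 0.3 without cold replicate 2, 0.028 to 0.089 without cold replicate 3, 0.084 to 0.18 without control replicate 2 and 0.075 to 0.098 without control replicate 3.

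Retrotransposon polyproteins, the proteins of elements that copy themselves through RNA, had 2 rises (0.722%), against 0.318% called higher over all tested genes. More members lay below both controls than above. Of 277 genes 95 lay below (34.3%) and 36 above (13%), against 25.5% and 22.8% of all tested genes, and the median log2 difference was -0.37. The TNT 1-94 type gene DN16959_c0_g3 was at 1096 and 792 TPM in cold replicates 2 and 3 and 10.9 and 48.8 TPM in control replicates 2 and 3 (log2 difference 5.26, SE 0.78, adjusted p = 0.025). Another of that type, DN35052_c2_g1, was at 106 and 21.5 TPM in the cold libraries and 0.15 and 0.15 TPM in the controls (log2 difference 5.41, SE 0.77, adjusted p = 0.02). GIP (DN32945_c0_g2), a match to the Copia protein outside that list, was at 707 and 489 TPM in the cold libraries and 7.94 and 38.6 TPM in the controls (log2 difference 4.97, SE 0.79, adjusted p = 0.028). In DN35052_c2_g1 both controls were at the same near-zero level, and cold replicate 2 was about 5 times cold replicate 3. The 3 genes had adjusted p 0.22 to 0.27 without cold replicate 2, 0.019 to 0.056 without cold replicate 3, 0.12 to 0.17 without control replicate 2 and 0.038 to 0.066 without control replicate 3.

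The table's own annotation gave 871 GO sets and 119 KEGG sets with at least 20 and at most 1000 tested genes. At least 1 called rise was held by 146 GO and 51 KEGG sets, and at least 1 called fall by 95 and 27. The median log2 difference was above 0 in 389 GO sets and below 0 in 474, and in 30 and 88 KEGG sets. The set medians ranged from -1.55 to 0.63 in GO and from -0.73 to 0.30 in KEGG. Over all tested genes the median was -0.03, with 25.5% below both controls and 22.8% above. The lowest GO median, -1.55, belonged to oxidoreductases acting on paired donors, whose 47 genes had only 9 distinct names. Of the 47, 29 lay below both controls. FAD2 came under 2 of these names, with 23 genes (17 below both controls) and 12 genes (8 below), so this set is mostly FAD2. Oligopeptide transporter activity followed at -1.46, with 15 of 20 genes below, 1 above and 0 called. Its members include the YSL transporters of metal-nicotianamine complexes. YSL3, with 5 genes, summed to 34 and 28.8 TPM in the cold and 136 and 117 TPM in the controls, and YSL7, with 4 genes, to 15.9 and 54.2 TPM against 163 and 126 TPM. Glycosaminoglycan degradation, a KEGG set that in this plant table holds many beta-galactosidases, had 40 of 79 genes below and 5 above. KEGG DNA replication had 66 of 140 below and 17 above. Response to hypoxia (58 genes) had 23 above and 9 below and shared its 3 called rises, the sucrose synthases, with the GO sets of sucrose. Golgi stack had 15 of 37 above, 2 below and 2 rises.

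**Figure D5:**
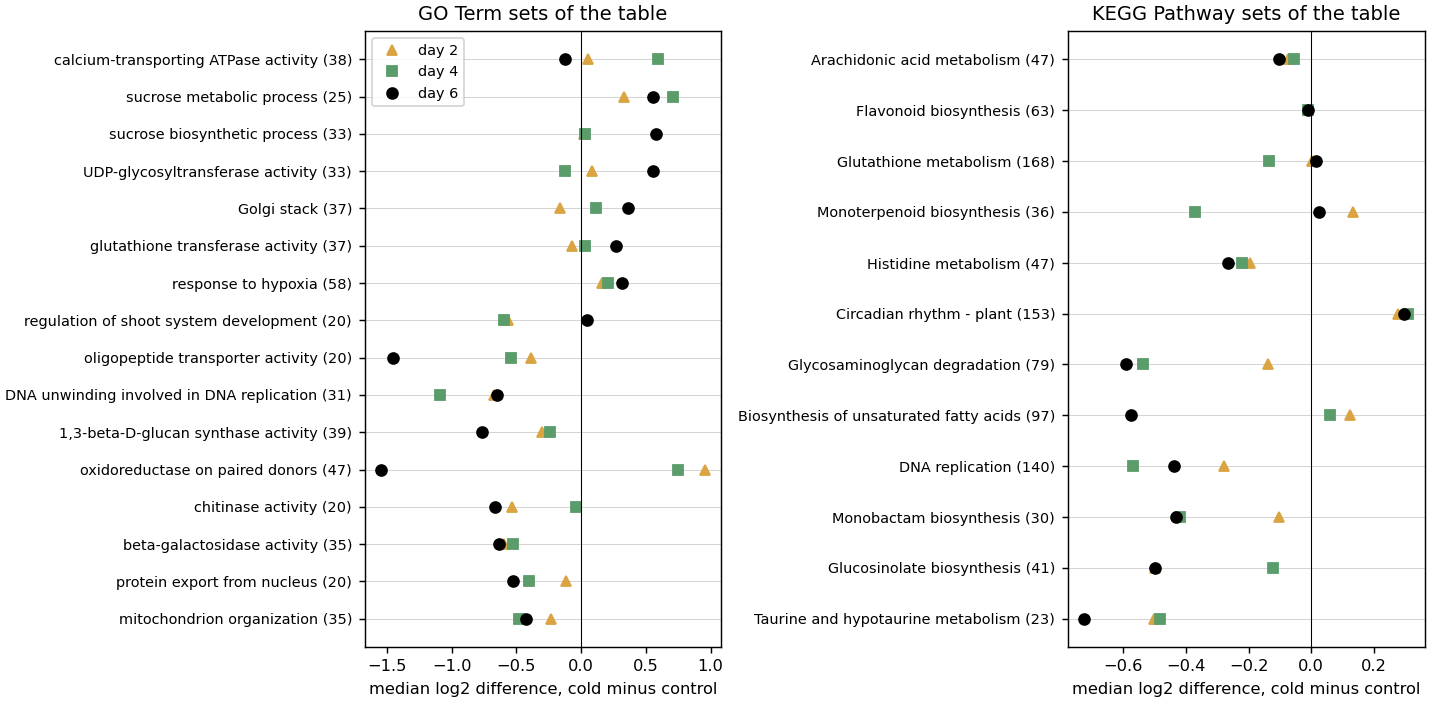
Median log2 difference, cold minus control, at days 2, 4 and 6 for the named GO sets (left) and KEGG sets (right), with the number of tested genes in brackets. At day 6 the oxidoreductases on paired donors lie at -1.55, against 0.96 and 0.75 at days 2 and 4, while the set circadian rhythm - plant lies at 0.30 at day 6.

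The same contrast on the other days used separate libraries. Cold against control gave 658 called rises (1.48%) and 128 falls (0.287%) at day 2 and 1816 rises (4.07%) and 1920 falls (4.3%) at day 4. Of the 142 rises of day 6, 25 were called higher at day 2 and 85 at day 4, and 120 had a difference above 0 on both days. Of the 74 falls of day 6, 5 and 43 were called lower, and 59 had a difference below 0 on both days. The median log2 difference of the day 6 rises was 0.93 at day 2 and 1.85 at day 4, and that of the day 6 falls was -0.83 and -1.57. Not all called genes followed this order. Among those that did not were sucrose synthases, with isoform 1 (DN12392_c0_g1) at 0.39 and -0.14 on days 2 and 4 and isoform 2 (DN28331_c0_g1) at 0.49 and -0.36, before 3.69 and 3.14 at day 6. For neither gene was the difference between days called.

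A test of the day 6 difference against the mean of the day 2 and day 4 differences called 4 genes (0.00897% of those tested; limma, Benjamini-Hochberg), with 3842 at an unadjusted p under 0.05. All 4 were relatively lower at day 6. ACA12 (DN15816_c0_g2), a plasma membrane calcium pump, had log2 differences of 3.14, 3.35 and -1.40 on days 2, 4 and 6. At day 6 it was at 23.4 and 18.5 TPM in cold replicates 2 and 3 and 78.9 and 40.7 TPM in control replicates 2 and 3. CML28 (DN19409_c0_g1), a calmodulin-like calcium sensor, had differences of 3.29, 3.88 and -0.22, and at day 6 its groups overlapped at 21.1 and 16.9 TPM in the cold libraries and 30.4 and 16.0 TPM in the controls. CBSX5 (DN26003_c0_g2), a CBS domain protein, had differences of 1.71, 0.63 and -1.79, and at day 6 it was at 12.0 and 13.7 TPM in the cold libraries and 53.2 and 41.1 TPM in the controls. The unannotated gene DN18933_c3_g1 had 7.28, 1.81 and -0.26. None of the 4 was called when cold replicate 2, cold replicate 3 or control replicate 2 was left out, since these fits gave 0 calls. ABCC1 (DN29451_c0_g2), a vacuolar transporter of glutathione conjugates, was chosen as having a low p for a higher day 6 and was at 82.7 and 101.48 TPM in the cold libraries and 14.2 and 17.0 TPM in the controls (log2 difference 2.49, SE 0.33, adjusted p = 0.014). Its differences on days 2 and 4 were -0.16 and 0, and the difference between days was not called. Its day 6 call had adjusted p 0.15 without cold replicate 2, 0.046 without cold replicate 3, 0.11 without control replicate 2 and 0.059 without control replicate 3.

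Some genes stood out in 1 cold library while the other lay between the controls. In cold replicate 2 alone, RBOHE (DN22101_c3_g4), an oxidase that makes reactive oxygen, was high, with 11.1 and 0 TPM in the cold libraries and 0 and 0.96 TPM in the controls. The pectate lyase 8 gene DN16748_c0_g1, which cuts pectin, was low in that library, with 1 and 20.1 TPM in the cold libraries and 20.7 and 13.2 TPM in the controls. In cold replicate 3 alone, KIN14R (DN33145_c1_g5), a kinesin motor, was high, with 28.4 and 323 TPM in the cold libraries and 9.75 and 36.0 TPM in the controls. Histone genes were low in that library only: H2A.1 (DN20980_c0_g1) was at 30.4 and 4.54 TPM in the cold libraries and 30.3 and 43.2 TPM in the controls, and HTR2 (DN18237_c0_g2) at 105 and 12.8 TPM in the cold libraries and 137 and 67.1 TPM in the controls. None of these 5 genes was called, and no test was made of a single library. Cold replicate 3 also held 42 genes with at least 5 TPM there and under 0.5 TPM in each of the other 11 libraries of the series, against 5 in cold replicate 2, 23 in control replicate 2 and 5 in control replicate 3. Of these 42, 15 had a vertebrate protein as their best match and no other protein annotation, while the genes of this kind in the other 11 libraries numbered 0. NTSR2 (DN38218_c0_g1) and PCDHGC4 (DN37719_c0_g1), named for animal membrane proteins, were at 15 and 14 TPM in cold replicate 3. Both were listed at 0 in the other 3 libraries of day 6. They passed the filter of 1 TPM in 2 of the 12 libraries, so neither is among the 42. Genes seen in 1 library only fail the filter of 1 TPM in 2 libraries, so they were not tested and could not be called. The part of such genes in the other values was not tested.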

How the data were processed

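Sequencing of total RNA from ginseng calli gave the 12 libraries used. The authors deposited TPM values per assembled gene, with gene length and annotation; the unit was read from the values. The submitters' processing notes name cutadapt, FastQC, edgeR and Salmon, with roles and versions not given in the sources used here. No read numbers were used, so depth and the precision it gives are unknown.

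TPM was taken as log2(TPM + 1), which understates the change of low genes. A gene needed 1 TPM or more in 2 or more libraries (353 dropped). limma 3.58.1 (R 4.3.3, data.table version 1.17.8) was fitted across all genes to 6 group means with a variance trend, so that all groups share the spread, and the contrast was cold minus control at day 6. P-values were adjusted by Benjamini-Hochberg and called at 0.05. The scripts were tested on simulated data. Figures used python 3.11.15 and matplotlib 3.10.9.

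Members, gene lists and tests were chosen with earlier results of these data known, and the lists are word patterns on the annotation, described by counts and medians without a set test. Named genes were the 12 largest called rises and falls with an informative name and at least 5 TPM in the higher group, the 6 with the widest gaps, up to 2 rises and 2 falls per list (or its most expressed member), up to 3 genes per direction that departed in 1 cold library, and the 3 lowest p per direction for day 6 against days 2 and 4. Sets were ranked by the share of members called or not overlapping. Alternatives were another pseudocount and other filters, scalings, weights and groupings, a replicate block, and each library left out.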

Additional observations from a re-analysis of the deposited data

Results flagged for a closer look

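The day 6 difference between cold and control departed from the mean of the day 2 and day 4 differences by the test of that difference itself in 4 genes (limma, Benjamini-Hochberg over 44600 genes). By the same test 0 genes departed with the replicate block, without the variance trend, and without cold replicate 2, cold replicate 3 or control replicate 2 of day 6, and 3 without control replicate 3. On the log2 scale it was lower by -2.96 for CBSX5 (DN26003_c0_g2), by -3.80 for CML28 (DN19409_c0_g1), by -4.65 for ACA12 (DN15816_c0_g2) and by -4.80 for the unannotated gene DN18933_c3_g1. ACA12 was at 177 and 126 TPM in the cold libraries of day 2 and at 201 and 252 TPM in those of day 4, and at 23.4 and 18.5 TPM in those of day 6. CML28 was at 120 and 129 TPM and at 110 and 166 TPM in the cold libraries of days 2 and 4, and at 21.1 and 16.9 TPM in those of day 6. Control libraries of ACA12 were at 12.7 to 30.6 TPM on days 2 and 4 and at 78.9 and 40.7 TPM on day 6.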

How the results depend on the processing

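The counts of called rises (142), called falls (74) and genes differing from the other days (4) stayed within 1.5 times with a pseudocount of 0.1, a filter of 5 TPM, median ratio scaling and array weights. With no filter the last count was 10, and with genes summed by Swiss-Prot hit 12. Quantile normalization gave 38 falls. Without the variance trend the counts were 27, 6 and 0. The replicate block gave 49 rises, 12 falls and 0 genes differing from other days. The deviations of same-numbered libraries had a correlation of -0.012 across genes, and whether a shared number marks a shared culture is unknown. The 4 day 6 libraries alone gave 0 rises and 0 falls, with fewer samples to estimate the spread. With 1 library left out the rises ranged from 1 to 172, the falls from 0 to 95 and the genes differing from other days from 0 to 3. Genes with no overlap ranged from 13577 to 18122 above and from 15402 to 19623 below, and a gap of at least 1 left 1201 and 1685. Apart from the fits with fewer samples, the cause was not tested.

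The 52 called genes chosen by the naming rule kept their sign in each setting run. For the fits with 1 library left out, their lack of overlap fixes this in advance. Uncalled genes that changed sign under quantile normalization were DN22365_c0_g1 (-0.076) and TIP1-1 (-0.025). With 1 library left out, the log2 difference of uncalled genes changed sign as well. RBOHE and HTR2, which each stood out in 1 cold library, changed sign without that library, and 11 others are given here. DN14510_c0_g1 ranged from -0.001 to 0.302, DN22365_c0_g1 from -0.59 to 1.058, DN25723_c1_g2 from -0.05 to 2.019 and CML28 from -0.657 to 0.225. CRD ranged from -0.261 to 0.163, GASA14 from -0.878 to 1.722, LAC7 from -1.18 to 0.154 and OPR2 from -0.913 to 1.927. PUMP5 ranged from -0.863 to 0.17, TIP1-1 from -1.089 to 1.278 and WOX8 from -0.156 to 1.042. TPM holds no read number, so what depth limits is unknown.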
